A study of Mus musculus with 6 samples.

Results

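The Fanconi and homologous recombination repair genes examined here are 39 mouse genes, and all 39 were found among the 21751 protein-coding genes of the GENCODE M39 annotation. An interval was assigned to such a gene when the transcript in its deposited annotation class, or the transcript of its nearest start site, belonged to that gene. The intervals came from CUT&RUN, in which a nuclease held by an antibody releases the DNA around the antigen for sequencing. The cells were male prospermatogonia of embryonic stage E16.5, sorted as GFP-positive cells from embryonic gonads carrying an Oct4-EGFP transgene, and every sample was wild type for Taf4b. The stock named in the protocol was B6;129S4-Pou5f1tm2Jae/J, while the strain label read C57BL/6. The 6 samples formed 3 groups of 2 replicates: an antibody to TAF4b, an antibody to H3K4me3 and the IgG control, which was not analysed here, so no value below is set against an antibody background. The labels do not say whether the 2 replicates came from separate pools of cells.

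The Fanconi anaemia pathway repairs crosslinks that join both strands of DNA. A core complex acts with the ubiquitin-conjugating enzyme UBE2T to put ubiquitin on FANCD2 and FANCI, after which nucleases open the crosslink and homologous recombination rebuilds the broken strand. In recombination the MRE11-RAD50-NBN complex and its partners trim the broken end, replication protein A (RPA) coats the single strand, BRCA1, PALB2 and BRCA2 prepare it to invade the intact partner, and BLM, MUS81 and others take apart the joined molecules. Germ cells depend on these proteins during fetal proliferation and again in meiosis. TAF4b is a germ cell enriched subunit of TFIID, the general factor that assembles RNA polymerase II at core promoters, and H3K4me3 is a histone mark of promoters.

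The 4 lists differed greatly in length, and each was made from 1 library. TAF4b replicate 1 held 7861 peaks and TAF4b replicate 2 held 848, of which 5756 and 748 were classed promoter-TSS in the deposited annotation, that is, centred near an annotated transcription start site (TSS). H3K4me3 replicate 1 held 64891 regions and H3K4me3 replicate 2 held 1730, of which 13454 and 1037 were classed promoter-TSS. The score of an interval is the authors' own value, with a scaling not given in the sources used here, so it is used only to rank intervals within 1 list. Depth is unknown, and a gene missing from the short replicate 2 lists says little about that gene. As a check of the sorted cells, 9 of 10 prospermatogonia markers, including Ddx4 and Dazl, lay within 1000 bp of an H3K4me3 replicate 1 region, Nanos2 being the exception, as did 72% of all protein-coding genes. The same held for 5 of 6 Sertoli cell markers (all but Amh), 1 of 5 Leydig cell markers (Insl3) and 2 of 4 endothelial and blood markers. In the short H3K4me3 replicate 2 list the only marker of these lists was Wt1 of Sertoli cells, with 0 of 10 prospermatogonia markers, against 7.31% of protein-coding genes. Their part in the results was not tested.

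The sequences under the TAF4b peaks are shown first for the repair genes on which the results turn: the 3 with a promoter peak in both TAF4b replicates (Mre11a, Rpa1 and Blm) and the 4 with the highest replicate 1 promoter scores (Mus81, Blm, Fance and Bard1). They are read from GRCm39 on the strand of the gene, 5′ to 3′. Capitals mark exact matches, on either strand, to the GC box GGGCGG, a core bound by SP-family factors, or to the CCAAT box, bound by NF-Y. A match is a description of letters only. For Mre11a, Rpa1 and Bard1, whose peaks lie over annotated exons, 30 bases at the match nearest the peak centre are given. Blm (chr7:80184900-80185040, minus strand), Mus81 (chr19:5539114-5539256, minus strand) and Fance (chr17:28532326-28532468, plus strand) are given over the exon-free part of the peak, and Mre11a (chr9:14695864-14695893, plus strand), Rpa1 (chr11:75239150-75239179, minus strand) and Bard1 (chr1:71142209-71142238, minus strand) over the short stretch.
Blm: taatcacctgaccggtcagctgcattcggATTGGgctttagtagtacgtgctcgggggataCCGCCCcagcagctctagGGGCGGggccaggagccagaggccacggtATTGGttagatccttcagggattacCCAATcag
Mre11a: ttcgctgctcaggATTGGctcctgtgaggt
Rpa1: cagttgctctagCCAATcgttgagcagccc
Mus81: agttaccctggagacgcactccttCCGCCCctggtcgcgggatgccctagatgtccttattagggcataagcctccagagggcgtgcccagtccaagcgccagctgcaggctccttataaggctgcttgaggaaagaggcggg
Fance: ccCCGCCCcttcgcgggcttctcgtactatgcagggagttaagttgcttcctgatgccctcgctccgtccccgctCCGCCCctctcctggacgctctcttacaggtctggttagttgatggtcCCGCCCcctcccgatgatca
Bard1: ggtttccgcggtCCGCCCtacacctcctga
The Blm stretch held 3 CCAAT boxes and 2 GC boxes, and the Mre11a and Rpa1 stretches each held a CCAAT box. Over all TAF4b replicate 1 promoter peaks, 42.1% held a CCAAT box within the 200 bp at their centre. The Fance stretch held 3 GC boxes and the Mus81 stretch 1.

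Of the 39 repair genes, 19 (48.7%) had a promoter-TSS peak in TAF4b replicate 1, against 24.9% of all protein-coding genes and 7.72% of all 77986 annotated genes. In TAF4b replicate 2 the count was 4 (10.3%), against 3.57% of protein-coding and 1.1% of annotated genes. An H3K4me3 promoter region was listed for 27 (69.2%) in replicate 1, against 48.6% of protein-coding and 17.7% of annotated genes, and for 2 (5.13%) in replicate 2, against 4.78% and 1.53%. The replicate 2 share for H3K4me3 was therefore close to its background. Blm, Mre11a and Rpa1 had a TAF4b promoter peak in both replicates, 3 genes or 7.69%, against 3.01% of protein-coding genes, and 20 (51.3%) had one in at least 1 replicate, against 25.5%. The plot of repair genes by list shows which gene had what. These shares are descriptions without a test, since the genes were chosen with earlier results of these data known.

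**Figure D1:**
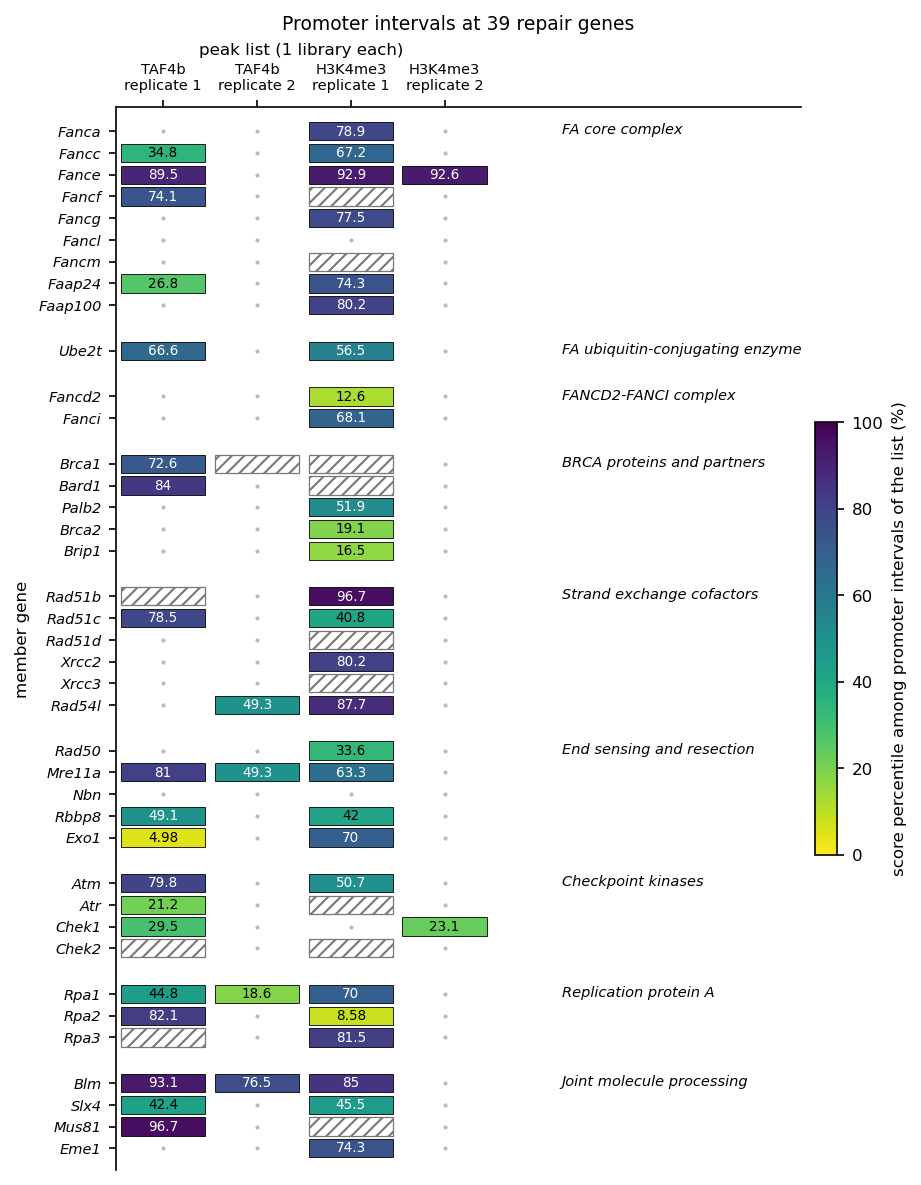
The 39 repair genes in rows, grouped by role, against the 4 peak or region lists in columns. A coloured box is a promoter-TSS interval named for the gene, with its score percentile among the promoter intervals of that list printed and coloured from 0 to 100%; a hatched box is an interval within 1000 bp that carries another gene's name or class, and a dot marks no interval. TAF4b replicate 1 marks 19 genes and H3K4me3 replicate 1 marks 27, while the replicate 2 lists mark 4 and 2.

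Because many of these genes share a promoter with a neighbour, a count by name misses peaks that carry the neighbour's name. By position alone, 22 repair genes (56.4%) had a TAF4b replicate 1 peak within 1000 bp of any of their annotated start sites, against 29% of protein-coding genes, and 5 (12.8%) had a replicate 2 peak, against 4.17%. For H3K4me3 the counts were 36 (92.3%) and 2, against 72% and 7.31%. The repair genes have a median of 10 annotated start sites each, against 5 over protein-coding genes, which widens the ground searched. Around the canonical start site alone, 21, 5, 35 and 2 repair genes were counted in TAF4b replicates 1 and 2 and H3K4me3 replicates 1 and 2, against 27%, 3.91%, 68.1% and 6.39% of protein-coding genes. Among the 36 repair genes with an H3K4me3 replicate 1 region within 1000 bp, 21 (58.3%) also had a TAF4b replicate 1 peak there, against 39.5% of protein-coding genes with such a region. Of the 27 with an H3K4me3 replicate 1 promoter region by name, 13 (48.1%) had a TAF4b replicate 1 promoter peak and 4 (14.8%) a replicate 2 one, against 33.2% and 4.83% of all 13768 genes with such a region. Those 13768 are genes of every type, 10567 of them protein-coding, while the repair genes are all protein-coding. The share over the protein-coding ones alone was not computed. Counting both TAF4b replicates, 23 repair genes (59%) had a peak within 1000 bp in at least 1 of them, against 29.5% of protein-coding genes, and 16 had none.

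In the Fanconi core complex, 4 of 9 genes had a TAF4b replicate 1 promoter peak, against 24.9% of protein-coding genes. None had a replicate 2 one. Fance, which links the core complex to FANCD2, had the highest of these scores, 31.3, at percentile 89.5 among the promoter peaks of that list, centred 96 bp upstream of its start (chr17:28532326-28532468, the stretch printed above). Fance was also the only gene of the 39 with an H3K4me3 promoter region in both replicates: the replicate 1 region scored 165.5 (percentile 92.9) and the replicate 2 region, 770 bp wide, scored 176.9 (percentile 92.6). Fancf, an adaptor of the core complex, had a TAF4b score of 23.8 (percentile 74.1), with the peak centred 31 bp upstream of its start and classed under its neighbour Gas2. Lower-scoring peaks lay at Fancc, a partner of FANCE, with 13.9 (percentile 34.8), and at Faap24, a DNA-binding partner of FANCM, with 12.4 (percentile 26.8). Both were centred within 36 bp upstream of the start.

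Fanca, Fancg and Faap100, other core subunits, had no TAF4b peak within 1000 bp but had H3K4me3 replicate 1 promoter scores of 122.2, 119.2 and 125.2, at percentiles 78.9, 77.5 and 80.2. These 3 scores lay within the range of the 4 core genes with TAF4b peaks: 101.4 at Fancc, 113.3 at Faap24, 131.2 for the Gas2 region over the Fancf start and 165.5 at Fance. Fancm, the translocase that anchors the complex to DNA, had a region named for its neighbour Fkbp3 (122.2) whose edge lay 21 bp from the nearest Fancm start. TAF4b peaks at Fkbp3 were listed in both replicates, with scores of 28.8 and 60.7, but at 1536 and 1455 bp from the nearest Fancm start they fell outside the window. Fancl, the ubiquitin ligase of the complex, had no interval of any list within 1000 bp, and its nearest H3K4me3 replicate 1 region was 44196 bp away.

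Ube2t, the conjugating enzyme that works with FANCL, had a TAF4b replicate 1 peak with a score of 21.3 (percentile 66.6), centred 57 bp upstream, and an H3K4me3 replicate 1 score of 86.5. Its substrates Fancd2 and Fanci had no TAF4b peak in either replicate. Their H3K4me3 replicate 1 regions were unlike each other: the Fanci region was 1807 bp wide with a score of 102.9 (percentile 68.1), and the Fancd2 region was 819 bp wide with a score of 31.3 (percentile 12.6).

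Among the BRCA proteins and their partners, Brca1 and Bard1, whose products pair as a ubiquitin ligase, had TAF4b replicate 1 promoter peaks, and Palb2, Brca2 and Brip1 had none in either replicate. The Bard1 peak scored 27.8 (percentile 84) and was centred 57 bp downstream of the start. At Brca1 the peak nearest its own start scored 23.3 (percentile 72.6) and was centred 20 bp upstream. A second TAF4b replicate 1 peak in the same shared promoter, 710 bp away at the start of Nbr1, scored higher, 33.7 (percentile 92.2). TAF4b replicate 2 listed only a peak on the Nbr1 side, with a score of 60.7, so the call seen in both replicates lay at Nbr1 and not at the Brca1 start. A single H3K4me3 replicate 1 region of 2158 bp, named for Nbr1 with a score of 155.0, spanned the locus. The Bard1 start lay by a region of 1484 bp with a score of 107.3 that was classed as exon. Palb2, Brca2 and Brip1 had promoter regions with scores of 80.5, 38.8 and 35.8. Palb2 stood at percentile 51.9 among the promoter regions of the list and Brca2 at 19.1, with Brip1 below it.

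Of Rad51b, Rad51c, Rad51d, Xrcc2, Xrcc3 and Rad54l, whose products assist strand exchange, Rad51c alone had a promoter peak of its name in TAF4b replicate 1. It scored 25.3 (percentile 78.5), was centred 52 bp upstream of the Rad51c start and was classed under the head-to-head gene Tex14. Rad51b had no peak of its name at its promoter, but a peak with a score of 20.8 (percentile 64.7) had its near edge 48 bp upstream of the nearest Rad51b start and was named for Zfyve26. Rad54l was listed in TAF4b replicate 2 only, with a score of 60.7 (percentile 49.3) and a centre 22 bp upstream. Among all 748 promoter peaks of TAF4b replicate 2, 140 (18.7%) overlapped no replicate 1 peak. Rad51d, Xrcc2 and Xrcc3 had no TAF4b peak within 1000 bp. All 6 genes had an H3K4me3 replicate 1 region near a start: Rad51b scored 196.8 (percentile 96.7, 3003 bp wide), Rad54l 144.6 (87.7), Xrcc2 125.2 (80.2) and Rad51c 65.6 (40.8). The region at Rad51d scored 92.4 and was classed as intron, and that at Xrcc3 scored 46.2 and was named for Zfyve21.

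Of the genes for end sensing and resection, Mre11a, Rbbp8 and Exo1 had TAF4b replicate 1 promoter peaks. Mre11a, which encodes a nuclease that starts resection, scored 26.3 (percentile 81) in replicate 1 and 60.7 (percentile 49.3) in replicate 2. The replicate 1 peak lay whole within the replicate 2 peak and the centres were 8 bp apart. In both lists the nearest start was that of the head-to-head gene Ankrd49, at 15 and 23 bp, while the class named Mre11a. Rbbp8, which encodes the MRE11 cofactor CtIP, scored 16.9 (percentile 49.1), and Exo1, a nuclease of long-range resection, had the lowest score of the 19 promoter peaks, 8.44 (percentile 4.98), although its H3K4me3 replicate 1 score was 105.8 (percentile 70). Rad50 had no TAF4b peak and an H3K4me3 replicate 1 score of 56.6 (percentile 33.6). Nbn had no interval of any list within 1000 bp, and the nearest H3K4me3 replicate 1 region, at Decr1, was 11802 bp away.

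The 4 checkpoint kinase genes, which signal the damage, all had a TAF4b replicate 1 peak within 1000 bp, 3 of them by name. The share over protein-coding genes was 29%, and 4 genes are few to set beside it. Atm scored 25.8 (percentile 79.8), with the peak centred 52 bp upstream of an Atm start in a promoter it shares with Npat, whose canonical start is 11 bp away. The Atm peak overlapped no H3K4me3 replicate 1 region: it lay in a gap between 2 of them, 229 bp from the first and 245 bp from the other. Chek1 scored 12.9 (percentile 29.5), centred 7 bp upstream. Chek1 had no H3K4me3 replicate 1 region within 1000 bp, the nearest being 39795 bp away, yet H3K4me3 replicate 2 listed a region of 635 bp over its start with a score of 101.1 (percentile 23.1). Of the 1037 promoter regions of H3K4me3 replicate 2, 21 (2.03%) overlapped no replicate 1 region, and Chek1 was among them. Atr scored 11.4 (percentile 21.2), and a second peak at its neighbour 1700065D16Rik scored 8.93. The peak at Chek2 carried the name of Hscb and scored 33.3 (percentile 91.9), the highest at the kinase genes.

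All 3 RPA subunit genes had a TAF4b replicate 1 peak within 1000 bp of a start, 2 of them by name. Over protein-coding genes the share within 1000 bp was 29%, and 3 genes are few to set beside it. Rpa1, the large subunit that binds single-stranded DNA, had a score of 15.9 (percentile 44.8) in replicate 1 and 48.6 (percentile 18.6) in replicate 2, with centres 17 bp apart at 27 and 44 bp upstream of the nearest annotated start. From the canonical Rpa1 start the same centres lay 278 and 261 bp downstream. Both peaks also covered the canonical start of the head-to-head gene Smyd4. At Rpa1, being listed in both replicates did not go with a high score. Rpa2 scored 26.8 (percentile 82.1) and was centred 139 bp upstream. The Rpa3 locus had a peak named for Umad1 with a score of 30.3 (percentile 87.8). In H3K4me3 replicate 1, Rpa1 scored 105.8, Rpa3 128.2 and Rpa2 26.8 (percentile 8.58), so the TAF4b order and the H3K4me3 order of Rpa1 and Rpa2 were opposite.

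Of the genes that process joined molecules, Blm, Slx4 and Mus81 had TAF4b replicate 1 promoter peaks and Eme1, the partner of MUS81, had none. Blm, a helicase that dissolves joined chromosomes, had the second highest score of the 19 in replicate 1, 34.7 (percentile 93.1, rank 398 of the 7861 peaks). It also had the highest of the 4 in replicate 2, 76.9 (percentile 76.5). The 2 Blm peaks shared 133 bp, were 33 bp apart at their centres, and were centred 102 and 69 bp upstream. Mus81, the catalytic subunit of a structure-selective nuclease, had the highest score, 39.7 (percentile 96.7, rank 193). That peak was centred 737 bp upstream of the canonical Mus81 start and 41 bp from the start of 1700061A03Rik, within an H3K4me3 replicate 1 region of 3972 bp named for Cfl1 that scored 325.0 and ranked 70. Slx4, a scaffold for nucleases, scored 15.4 (percentile 42.4). Eme1 had an H3K4me3 replicate 1 score of 113.3 (percentile 74.3), above the 71.5 of Slx4.

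Across the 19 named genes, TAF4b replicate 1 promoter scores ran from 8.44 to 39.7 with a median of 23.3, against 16.9 over all promoter peaks of the list. In percentiles they ran from 4.98 to 96.7 with a median of 72.6, and 11 of 19 lay above the list median. In TAF4b replicate 2 the median of the 4 genes equalled that of all promoter peaks, 60.7. The 29 H3K4me3 replicate 1 promoter regions of the repair genes had a median score of 101.4 and a median width of 1386 bp, against 77.5 and 1197 bp for all promoter regions of the list. Taking the best region within 1000 bp of each gene, the 22 repair genes with a TAF4b peak in either replicate had a median width of 1576 bp and score of 105.8, and the 14 without had 1142 bp and 97.65. Over protein-coding genes the same medians were 1492 bp and 96.9 with TAF4b and 1340 bp and 87.9 without.

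TAF4b peaks lay mostly upstream of the nearest start sites, while the centres of the H3K4me3 regions fell on both sides. Every TAF4b promoter peak in a list has the same width, 142 bp in replicate 1 and 188 bp in replicate 2, so that width is not a measurement of the single peak, and H3K4me3 promoter regions are at least 500 bp wide in both lists. Distances here are the deposited ones, to the nearest annotated start of any gene, and signed by the strand of that gene. That start was a neighbour's at Mre11a, Rbbp8, Atr and Mus81 in TAF4b replicate 1, at Mre11a in TAF4b replicate 2, and at Faap24, Fancd2, Brip1, Rad51c, Atm and Rpa1 in H3K4me3 replicate 1. For these the side need not be that relative to the repair gene, a limit that the medians and counts carry. The peak centres named for repair genes ran from 139 bp upstream to 57 bp downstream in replicate 1, with 15 of 19 upstream. In replicate 2 they ran from 69 to 22 bp upstream, with 4 of 4 upstream. H3K4me3 replicate 1 regions were centred from 615 bp upstream to 591 bp downstream, 14 of 29 upstream, and replicate 2 had 1 of 2 upstream. The median signed distance per library was -31 and -33.5 bp for TAF4b and 0 and 56.5 bp for H3K4me3, that is, -32.25 ± 1.77 bp against 28.25 ± 39.95 bp (SD, n = 2 each). The difference of -60.5 bp gave p = 0.333 in a two-sided exact permutation test over the 4 libraries, the smallest p that 2 against 2 allows. The direction turned, to 15.25 bp, when only the higher-scoring 50% of each list was used. From the canonical start of the repair gene itself, 14 of the 19 TAF4b replicate 1 peaks were centred upstream, with a median of -36 bp and a range from -2162 bp at Slx4 to 460 bp at Rbbp8. Over all promoter intervals the medians were -51 and -72 bp for TAF4b and -38 and -9 bp for H3K4me3, and 80.8%, 86.1%, 61.7% and 54.7% were upstream. The map of promoters shows where the peaks lie against the regions.

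**Figure D2:**
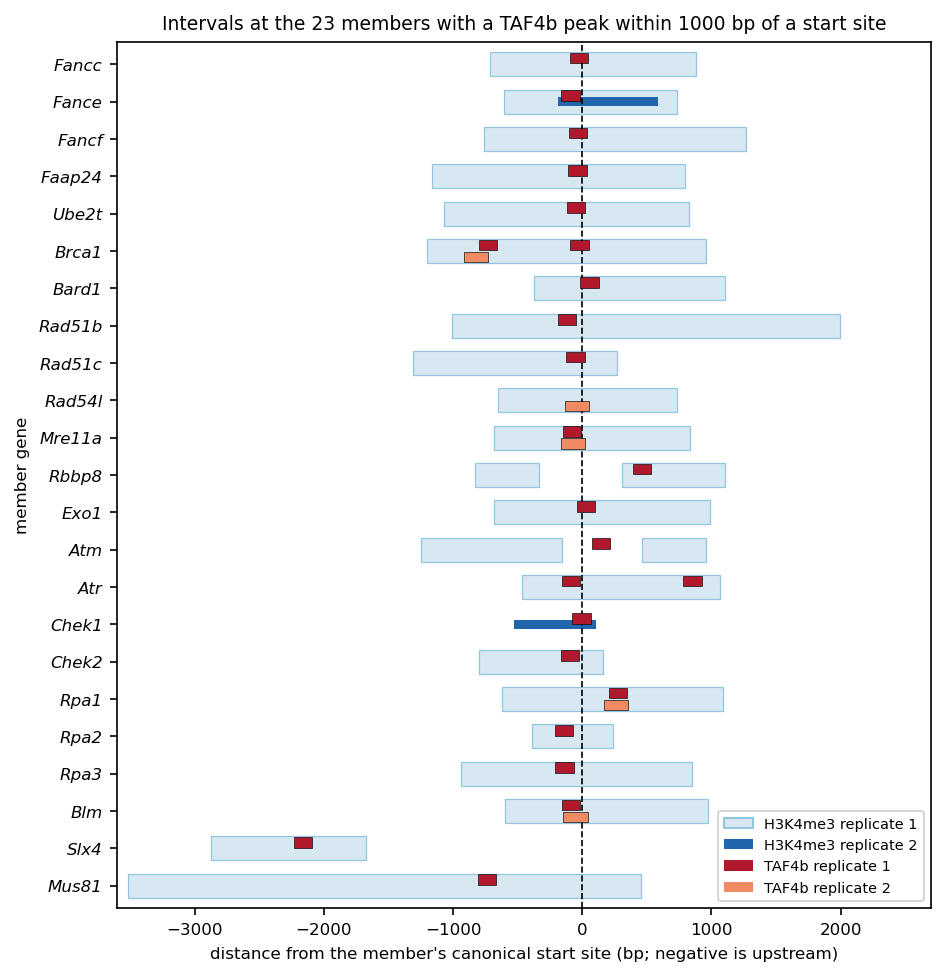
Intervals at the 23 repair genes with a TAF4b peak within 1000 bp in either replicate, in bp from the canonical start site of the gene, negative being upstream; bars span each TAF4b peak and H3K4me3 region, coloured by library. TAF4b peaks have a fixed width of 142 or 188 bp, and 14 of the 19 named replicate 1 peaks are centred upstream of 0, with Slx4 and Mus81 farthest away. The named peaks overlap wider H3K4me3 replicate 1 regions except at Atm and Chek1.

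Of the 19 repair genes with a TAF4b replicate 1 promoter peak, 17 (89.5%) had that peak over an H3K4me3 replicate 1 region by at least 1 bp, against 87.3% of all genes with such a peak, so the share was near its background. Atm and Chek1 were the exceptions. For 6 of the 19 the H3K4me3 region either carried another gene's name, was classed as exon or was not listed.

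Most intervals named for the repair genes were at promoters, to a larger share than in the whole of each list. Promoter-TSS intervals made up 95% of the named intervals in TAF4b replicate 1 (19 of 20), 100% in TAF4b replicate 2 (4 of 4), 54.72% in H3K4me3 replicate 1 (29 of 53) and 100% in H3K4me3 replicate 2 (2 of 2). Over all intervals of the same lists the shares were 73.2%, 88.2%, 20.7% and 59.9%. The whole lists include intervals named for genes that are not protein-coding, and no share was computed for protein-coding genes alone. The means were 97.5 ± 3.54% and 77.36 ± 32.02% (SD, n = 2 each), and the difference of 20.14 percentage points was within the spread between replicates (p = 1, two-sided exact permutation test over the 4 libraries). The H3K4me3 replicate 1 intervals with another deposited class were 11 intergenic, 10 intronic, 2 exonic and 1 at a transcript end. The class goes by the centre of the interval: the exonic region at Bard1 and an intronic one at Rad51d spanned a start of the gene, and an intronic one at Fancc lay 180 bp from a start. Rad51b, a very long gene, held 5 of the intronic ones, with scores from 22.4 to 47.7. It also held the single TAF4b peak of another class, an intronic one with a score of 7.44 and rank 7626 (chr12:79694323-79694465) that overlapped an H3K4me3 replicate 1 region with a score of 41.7.

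Head-to-head gene pairs, in which opposite-strand neighbours start close to each other and can share a promoter, were common among the repair genes. The canonical start of an opposite-strand protein-coding gene lay within 1000 bp of the canonical start of 13 of the 39 (33.3%), against 8.85% of protein-coding genes. The pairs were Faap24 with Cep89, Fancd2 with Emc3, Brca1 with Nbr1, Palb2 with Dctn5, Rad51b with Zfyve26, Rad51c with Tex14, Xrcc3 with Zfyve21, Mre11a with Ankrd49, Atm with Npat, Chek2 with Hscb, Rpa1 with Smyd4, Rpa3 with Umad1 and Eme1 with Mrpl27. A TAF4b peak in either replicate lay within 1000 bp of a start site for 9 of these 13 (69.2%) and for 14 of the other 26 (53.8%). Over protein-coding genes the same shares were 1277 of 1926 head-to-head genes (66.3%) and 5142 of 19825 others (25.9%). At such a promoter a peak cannot be given to either gene from these data.

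Sequence letters within 200 bp windows at the 19 named TAF4b replicate 1 peaks were compared with windows at all 5756 promoter peaks, counting exact matches on either strand. The GC box GGGCGG was found at 12 peaks (63.2%, against 65.8%) and the CCAAT box at 11 (57.9%, against 42.1%). The ETS core CCGGAAG was found at 7 (36.8%, against 17.4%), the NRF1 letters GCATGCGC at 3 (15.8%, against 5.98%) and the E2F letters TTTNNCGC at 4 (21.1%, against 7.51%). The cell cycle element TTTGAA (5.26%, against 5.77%), the cyclic AMP element TGACGTCA (5.26%, against 5.21%) and the GFY motif (5.26%, against 7.28%) were each at 1 peak. The YY1 letters AAGATGGCG and the TATA letters TATAAA were at none, against 2.62% and 2.88%. Median GC content was 62.5% at the repair gene peaks and 64.5% at all promoter peaks.

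The same letters were counted from 150 bp before to 49 bp after the canonical start of all 39 repair genes and of all 21751 protein-coding genes, whether or not a peak was listed. There the GC box was in 53.8% against 39.5%, the CCAAT box in 46.2% against 31.6%, the ETS core in 20.5% against 9.03%, the NRF1 letters in 7.69% against 3.2%, the E2F letters in 10.3% against 4.5% and the TATA letters in 5.13% against 8.65%. The cell cycle element was in 10.3% against 9.72% and the cyclic AMP element in 7.69% against 2.23%. The YY1 letters were in 2.56% against 1.13% and the GFY motif in 5.13% against 2.72%. Median GC content of these windows was 61% and 56.5%. The GC box, cell cycle element, YY1 letters, GFY motif and median GC content stood in the opposite order to the peak windows. The shares are counts of letters, and with 19 peaks each peak moves a share by several percentage points.

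**Figure D3:**
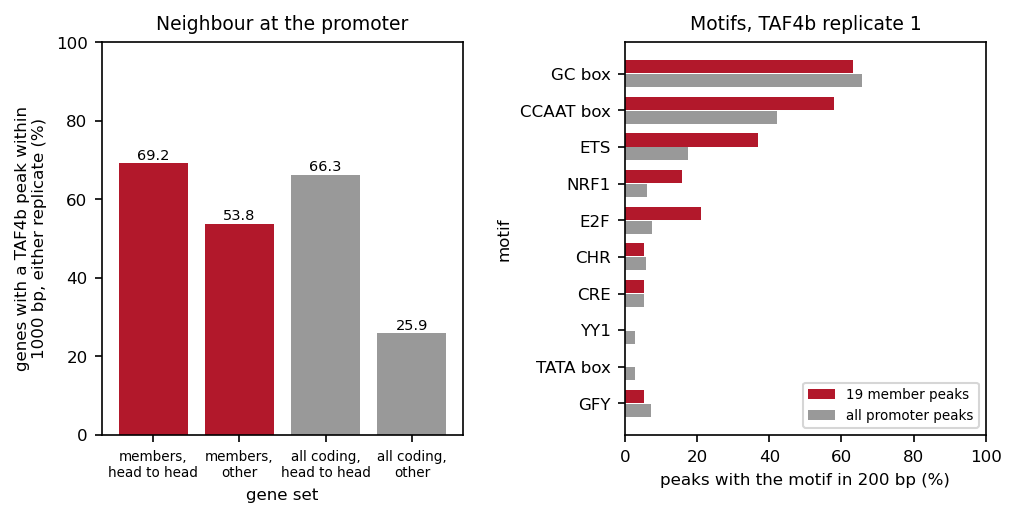
On the left, the percent of genes with a TAF4b peak within 1000 bp in either replicate, for head-to-head and other genes, among the repair genes and all protein-coding genes; on the right, the percent of 200 bp windows at TAF4b replicate 1 promoter peaks holding each motif, for the 19 repair gene peaks and all 5756. Head-to-head repair genes stand at 69.2% and head-to-head protein-coding genes at 66.3%, and the ETS core is at 36.8% of repair gene peaks against 17.4%.

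The 4 windows with the E2F letters belong to Fancc, Bard1, Rad51c and Chek1, and 30 bases around each match are given because E2F factors are known regulators of genes for replication and its repair. These were chosen after their values were seen. The stretches are on GRCm39, minus strand, with the matched letters in capitals: Fancc chr13:63579492-63579521, Bard1 chr1:71142322-71142351, Rad51c chr11:87295303-87295332 and Chek1 chr9:36637893-36637922.
Fancc: cccttgcggccGCGGGAAAattccaaacac
Bard1: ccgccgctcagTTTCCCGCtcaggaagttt
Rad51c: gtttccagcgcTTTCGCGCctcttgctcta
Chek1: agcaggttttgGCGGGAAAagctgtgcatt
The matches lay 87, 89, 83 and 53 bp from the centres of the TAF4b peaks, so the match at Chek1 alone was inside the 142 bp peak itself.

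Other DNA repair genes, in lists that were also chosen with earlier results known, give the setting. In TAF4b replicate 1 a promoter peak was listed for 22 of 37 further Fanconi and recombination genes (59.5%), 5 of 12 end joining genes (41.7%), 7 of 18 base excision repair genes (38.9%), 7 of 15 nucleotide excision repair genes (46.7%) and 4 of 7 translesion synthesis genes (57.1%). The 48.7% of the 39 genes thus lay within the range of the other repair lists. By position within 1000 bp of a start, the counts were 22, 6, 10, 9 and 4, against 22 of the 39. Promoter-TSS peaks of their name in both TAF4b replicates were listed for Rfwd3, Cenpx and Swi5 of the further recombination genes and for Parp2, a sensor of single-strand breaks.

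**Figure D4:**
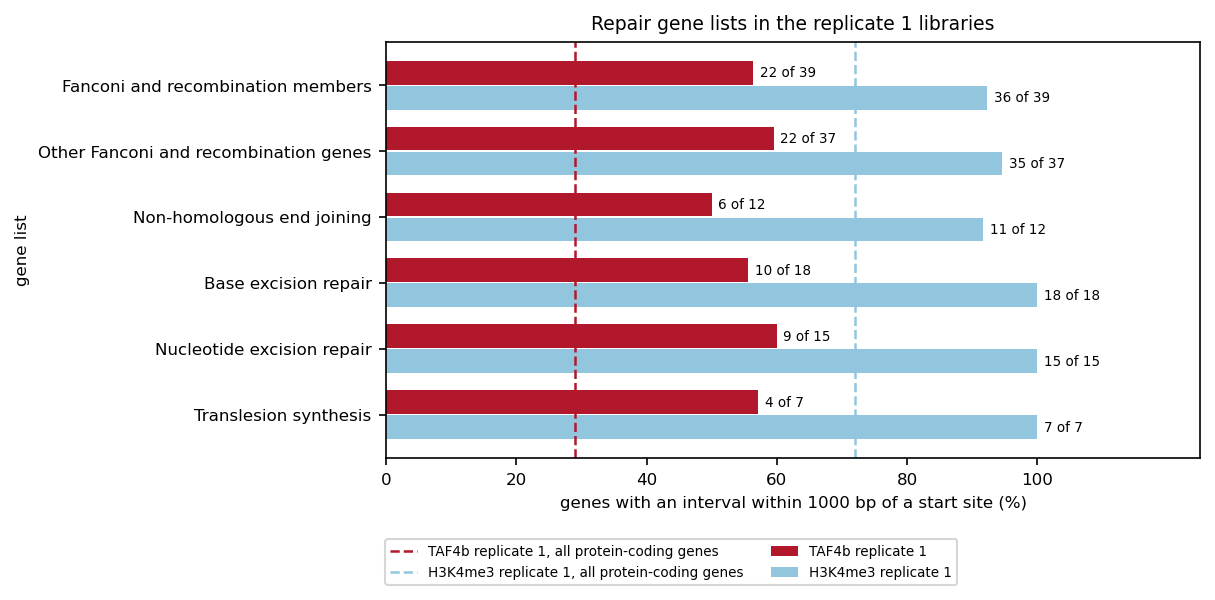
Percent of the genes of each repair list with a TAF4b replicate 1 peak (red bars) or an H3K4me3 replicate 1 region (blue bars) within 1000 bp of a start site, with the count beside each bar; dashed lines mark all protein-coding genes (29% and 72%). The 39 Fanconi and homologous recombination genes stand at 22 and 36 of 39, and nucleotide excision repair has the highest TAF4b share, 9 of 15.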

How the data were processed

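Per the submitters' processing notes, the authors used bcl2fastq 2.20, Trim Galore 0.5.0, FastQC 0.11.5, Bowtie2 2.3.0, SAMtools 1.9 and HOMER 4.10 with GRCm39, and the H3K4me3 file headers name annotatePeaks of HOMER with GRCm39 and Ensembl 103. The peak threshold is not given in the sources used here. The peak score in each deposited list is the authors' value, with a scaling not given in the sources used here. Read totals are not given, so the depth behind each interval is unknown and no counting interval was made.

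Each of the 4 lists used comes from 1 library; groups were assigned from the sample titles. Gene names came from the deposited transcript identifiers, of which 98.64% to 99.17% were found in GENCODE M39. Positions are given as deposited on GRCm39. Counts of genes, overlaps of at least 1 bp, percentiles and motif matches were computed in Python 3.11.15 with pysam 0.24.0, and figures were drawn with matplotlib 3.10.9. The helper functions were tested on simulated data. A head-to-head neighbour is an opposite-strand protein-coding gene whose canonical start lies within 1000 bp on either side. Per-library medians were compared with a two-sided exact permutation test. The members, lists and cell markers were chosen with earlier results of these data known. Values are given for each member with a TAF4b promoter peak or an H3K4me3 replicate 2 promoter region, other members are described by what is listed for them, and other repair genes are named where a TAF4b promoter peak was in both replicates. The alternatives were the higher-scoring 50% of each list, position in place of name, other overlaps, leaving out a replicate and a replicate block. Some further repair genes are not reported here.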

Additional observations from a re-analysis of the deposited data

How the results depend on the processing

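With 2 libraries against 2 the exact permutation test of either comparison between antibodies cannot go below 0.333, so stability was read from direction and size. The position difference of -60.5 bp was -90 and -31 bp without replicate 1 or replicate 2, -71.75 bp for intervals within 1000 bp of the TSS, and 15.25 bp, the opposite sign, for the higher-scoring 50% of each list. In that setting H3K4me3 replicate 2 keeps only Fance. The difference in promoter share of 20.14 points was 0 without replicate 1 and 40.28 without replicate 2, and 17.31 and 14.06 in the other settings. With a replicate block both values stayed at -60.5 (exact sign-flip permutation p = 0.5, the smallest possible with 2 pairs) and 20.14 (p = 1). The labels do not say that equal replicate numbers share cells. Promoter intervals per gene, replicate 1 minus replicate 2, had r = -0.109 between TAF4b and H3K4me3 over the 39 genes. With so few genes in the replicate 2 lists, these differences are nearly the replicate 1 counts. The value therefore cannot tell whether equal numbers share cells. In the higher-scoring 50% of each list H3K4me3 replicate 2 kept 1 of its 2 genes. The 17 genes with a TAF4b replicate 1 peak over H3K4me3 became 2 with the short H3K4me3 replicate 2 list. The other counts stayed within 1.5 times: TAF4b replicate 1 from 14 to 22, replicate 2 from 3 to 5, both replicates from 2 to 4, and H3K4me3 replicate 1 from 23 to 36. The alternatives by class transcript only (16 in TAF4b replicate 1) and by canonical start site were chosen after seeing the data.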
